A study of Mus musculus with 12 samples.

Results

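Genes of the bone-forming programme were read in C3H10T1/2, a multipotent mesenchymal line from mouse embryos that can be driven to form bone, cartilage, fat or muscle cells. The members are 10 genes listed by name: the transcription factor genes Runx2, Sp7, Dlx5, Msx1, Msx2 and Twist1, and the mineral and matrix genes Alpl, Ibsp, Spp1 and Dmp1. They were found as every probe set (a group of probes on an Affymetrix array that reads 1 transcript) whose platform annotation gives that gene as its 1 symbol. This gave 13 probe sets for 8 of the 10 genes, of 45037 probe sets and 18193 genes in all. Runx2 and Spp1 have no probe set under their symbol in the annotation used and were not analysed here.

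Osteoblasts arise from mesenchymal progenitors. RUNX2 commits cells to the lineage and SP7 (osterix) acts after it, while DLX5 and MSX2 are homeobox factors that answer to bone morphogenetic proteins (BMPs), and TWIST1 holds RUNX2 back in early progenitors. Later, alkaline phosphatase (Alpl) removes the mineralization inhibitor pyrophosphate, and bone sialoprotein (Ibsp), osteopontin (Spp1) and dentin matrix protein (Dmp1) are acidic phosphoproteins laid down in the mineralizing matrix. C3H10T1/2 cells are a common model in which BMP treatment starts this sequence.

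The 4 groups had 3 arrays each. To raise miR-140, siRNA-140 (miR-140 supplied as an siRNA) was transfected, with siRNA-96 as its control. To lower it, cells received anti-miR-140, an LNA (locked nucleic acid) oligonucleotide against miR-140, with anti-miR-449 as the control. All 12 samples come from this 1 cell line, and every group was transfected. The controls are named for other microRNAs, siRNA-96 for miR-96 and anti-miR-449 for miR-449. Each difference therefore joins miR-140 with miR-96 or miR-449. Doses, harvest time and any bone-inducing medium are not stated in the sources used here. The labels do not say that replicates were separate cultures, so p-values measure only the spread between these samples, which may be technical.

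Mature microRNAs of the names used in the treatments are given so that their seeds can be compared. The labels name no arm, so an arm printed here need not be the one supplied or blocked, and miR-140-5p is not among those shown. Sequences are from RefSeq (GRCm38.p6), written 5′ to 3′, with the seed, bases 2 to 8, in capitals.
mmu-miR-140-3p, chr8:107551288-107551308, plus strand: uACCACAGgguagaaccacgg
mmu-miR-96-5p, chr6:30169506-30169528, minus strand: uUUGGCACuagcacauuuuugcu
mmu-miR-449a-5p, chr13:113037549-113037570, plus strand: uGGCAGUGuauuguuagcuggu
mmu-miR-449c-5p, chr13:113036008-113036028, plus strand: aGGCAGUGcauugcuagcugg
miR-449a-5p and miR-449c-5p share their seed, and neither miR-140-3p nor miR-96-5p shares it.

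Values are the authors' log2 expression values made with RMA. The median of an array was between 3.95 and 4.02 in the siRNA experiment and between 4.32 and 4.38 in the anti-miR experiment, so levels are set across experiments without a test. Of 10 mesenchymal marker genes, 9 read above the sensory receptor level (defined in the next paragraph) in all 12 arrays, Vim and Col3a1 among them, and Thy1 in none. The siRNA arrays did not group as labelled. The mean log2 level of 8 interferon response genes was 4.15, 4.30 and 6.47 over siRNA-140 replicates 1 to 3, against 4.43, 7.70 and 8.24 over siRNA-96 replicates 1 to 3, and ran between 3.57 and 4.14 in the 6 anti-miR arrays. The first principal component of the siRNA arrays, with 53.2% of their variance, put siRNA-140 replicate 3 with siRNA-96 replicates 2 and 3 and siRNA-96 replicate 1 with siRNA-140 replicates 1 and 2. Whether the labels of siRNA-140 replicate 3 and siRNA-96 replicate 1 were exchanged cannot be told from the sources used here, so every siRNA value stands under its label and an exchange would move it to the other group. Results of the siRNA comparison are therefore given with all arrays and without these 2 arrays, called displaced here.

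In these cells Twist1, Dlx5 and Msx1 read well above the upper end of sensory receptor probe sets. Alpl, Ibsp and Dmp1 read at or below that level in nearly all arrays. RMA values carry no detection call, so each probe set was set against the 95th percentile, in the same array, of 86 probe sets for 77 olfactory, vomeronasal and taste receptor genes, which are known mainly from sensory cells. The median of these 86 probe sets was between 2.45 and 2.84 over the arrays, and Alpl, at 3.42 to 4.14, lay above it in every array. Their 95th percentile was between 3.98 and 4.40. It was exceeded by 44.9% to 49.8% of all probe sets in the siRNA arrays and by 50.3% to 53.4% in the anti-miR arrays. Among the members, 4 of 13 probe sets exceeded it in all 12 arrays, and they belong to Twist1, Dlx5 and Msx1. For Msx2, Ibsp and Dmp1, all 7 probe sets stayed below it in every array, and those of Sp7 and Alpl exceeded it in 4 arrays and 1 array. The percentages above are for single arrays. The share of all probe sets above this level in all 12 arrays, or in none, was not counted. The member counts therefore describe the brightness of probe sets and do not place members against all probe sets. They do not rank the genes by transcript number.

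**Figure D1:**
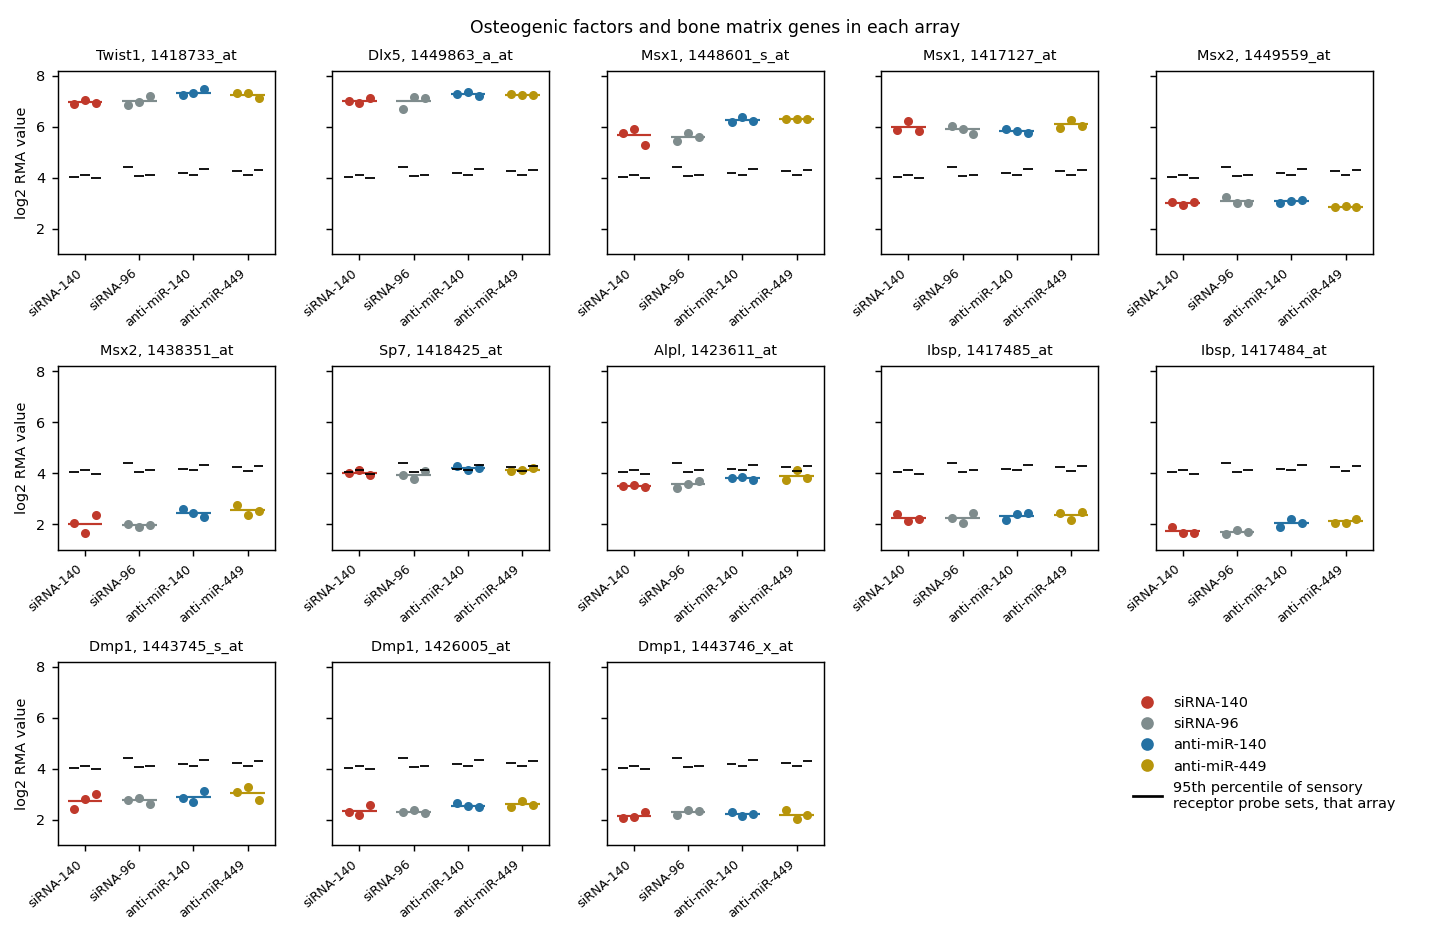
The log2 RMA value (vertical axis) of each member probe set in each array (points) with the group mean (coloured line), in 1 panel per probe set; short black lines give the 95th percentile of the sensory receptor probe sets of the same array. Twist1, Dlx5 and Msx1 lie above the black lines throughout, Sp7 lies on them, and Msx2, Ibsp and Dmp1 lie below them in all 12 arrays.

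Twist1, which encodes a basic helix-loop-helix factor of mesenchyme, read 6.90, 7.04 and 6.94 with siRNA-140, against 6.85, 6.95 and 7.19 with siRNA-96. It read 7.23, 7.32 and 7.47 with anti-miR-140, against 7.33, 7.31 and 7.14 with anti-miR-449. The groups overlapped in both experiments. The log2 difference was -0.04 ± 0.11 (SE; 95% interval -0.27 to 0.20) for siRNA-140 minus siRNA-96 and 0.08 ± 0.11 (interval -0.15 to 0.31) for anti-miR-140 minus anti-miR-449, with limma adjusted p-values of 0.966 and 1. Without the 2 displaced arrays, the siRNA difference was -0.10 ± 0.13 (limma adjusted p = 0.742).

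Dlx5, a homeobox gene induced by BMPs early in bone formation, read 6.99, 6.93 and 7.11 with siRNA-140, against 6.69, 7.17 and 7.11 with siRNA-96. Its lowest value was in siRNA-96 replicate 1, and the arrays with a high interferon level (siRNA-140 replicate 3, siRNA-96 replicates 2 and 3) held its 3 highest values. The part of the interferon level in this was not tested. The difference was 0.02 ± 0.12 with all arrays and -0.18 ± 0.10 (interval -0.40 to 0.04; limma adjusted p = 0.352) without the 2 displaced arrays, so its sign rests on those arrays. With anti-miR-140 it read 7.28, 7.35 and 7.22, against 7.29, 7.23 and 7.25 with anti-miR-449, a difference of 0.03 ± 0.12.

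Msx1, a homeobox gene of craniofacial and limb mesenchyme, has 2 probe sets. Names ending in _s_at or _x_at mark probe sets whose probes can match more than 1 transcript. The one with the higher mean, 1448601_s_at, read 5.76, 5.92 and 5.29 with siRNA-140, against 5.43, 5.75 and 5.60 with siRNA-96, and the groups overlapped. Its difference was 0.06 ± 0.14, and 0.165 ± 0.11 without the displaced arrays. The other, 1417127_at, read 5.86, 6.24 and 5.83 with siRNA-140, against 6.04, 5.91 and 5.72 with siRNA-96, which gave 0.09 ± 0.13, and 0.235 ± 0.145 without the displaced arrays (limma adjusted p = 0.416).

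In the suppression experiment the Msx1 probe sets differed from each other. At 1417127_at, anti-miR-140 arrays read 5.91, 5.83 and 5.77, against 5.96, 6.28 and 6.03 with anti-miR-449, so every anti-miR-140 array lay lower. The difference of -0.25 ± 0.13 (interval -0.53 to 0.025) had an unadjusted p of 0.0715 and an adjusted p of 1 in limma. At 1448601_s_at the groups overlapped, with 6.19, 6.38 and 6.24 for anti-miR-140, against 6.32, 6.31 and 6.31 for anti-miR-449, and the difference was -0.04 ± 0.14.

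Msx2, a paralogue of Msx1 that acts in skull growth, showed the largest difference with anti-miR-140 among the genes' brightest probe sets, at a level below the sensory receptor percentile in every array. Probe set 1449559_at read 3.0, 3.08 and 3.12 with anti-miR-140, against 2.86, 2.87 and 2.84 with anti-miR-449, without overlap. The difference was 0.21 ± 0.09 (interval 0.01 to 0.41; 1.16-fold), with an unadjusted limma p of 0.0384 and an adjusted p of 1. Its other probe set, 1438351_at, gave -0.09 ± 0.16 and overlapped, with 2.61, 2.45 and 2.29 against 2.77, 2.34 and 2.52. With siRNA-140, 1449559_at read 3.03, 2.91 and 3.04, against 3.24, 3.01 and 3.02 with siRNA-96, a difference of -0.10 ± 0.09, and -0.045 ± 0.10 without the displaced arrays. At 1438351_at the siRNA-140 arrays read 2.03, 1.66 and 2.36, against 1.99, 1.90 and 1.97 with siRNA-96. That difference turned sign, with 0.06 ± 0.16 over all arrays and -0.09 ± 0.16 without the displaced ones.

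Sp7, the osteoblast factor gene downstream of Runx2, read 3.99, 4.14 and 3.92 with siRNA-140, against 3.92, 3.76 and 4.09 with siRNA-96. It read 4.27, 4.11 and 4.20 with anti-miR-140, against 4.10, 4.12 and 4.19 with anti-miR-449. Groups overlapped in both, and the differences were 0.09 ± 0.10 (0.14 ± 0.12 without the displaced arrays) and 0.06 ± 0.10. These values lie at the edge of the sensory receptor level, so a change in Sp7 transcripts could be understated.

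Alpl, the tissue-nonspecific alkaline phosphatase gene and a usual early marker of osteoblasts, read 3.51, 3.53 and 3.44 with siRNA-140, against 3.42, 3.57 and 3.70 with siRNA-96. With anti-miR-140 it read 3.80, 3.85 and 3.74, against 3.75, 4.14 and 3.81 with anti-miR-449. The one array above the sensory receptor level was anti-miR-449 replicate 2. Groups overlapped, with differences of -0.07 ± 0.11 (-0.115 ± 0.13 without the displaced arrays) and -0.10 ± 0.11.

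The matrix genes Ibsp and Dmp1 were dim in every group. Over the 12 arrays the Ibsp probe sets lay between 1.62 and 2.49 and those of Dmp1 between 2.03 and 3.30. At the brighter Ibsp probe set, 1417485_at, values were 2.39, 2.11 and 2.20 with siRNA-140, against 2.26, 2.03 and 2.45 with siRNA-96. They were 2.18, 2.39 and 2.42 with anti-miR-140, against 2.45, 2.17 and 2.49 with anti-miR-449. All 5 probe sets of both genes overlapped between the compared groups. Their differences ran between -0.14 and 0.04 in the siRNA comparison and between -0.16 and 0.03 in the anti-miR comparison. Without the displaced arrays the siRNA differences ran between -0.285 and 0.035, with 0.01 ± 0.16 at 1417485_at. Of the 3 Dmp1 probe sets, 2 have names ending in _s_at or _x_at.

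The question of the over-expression experiment was whether raising miR-140 moves these genes relative to miR-96. For siRNA-140 minus siRNA-96, limma called 0 of 13 member probe sets at an adjusted p under 0.05, where 0% of all probe sets were called. At an unadjusted p under 0.05 it was again 0 of 13, against 5.09% of all probe sets, and in 0 of 13 did the groups not overlap, against 6.1%. All 13 intervals lay within -0.38 to 0.405, or 0.766-fold to 1.32-fold. Without the displaced arrays, limma on the other 10 arrays called 8.98% of all probe sets and 0 of 13 members, with intervals within -0.55 to 0.55 (0.684-fold to 1.46-fold). A fit of the 4 remaining siRNA arrays alone, added after seeing the data, called 3.87% and 0 of 13. The smallest unadjusted p among members in the 10-array fit was 0.0359, for the dim Dmp1 probe set 1443746_x_at (-0.285 ± 0.12, limma adjusted p = 0.199).

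The suppression experiment asked the reverse, with miR-140 blocked. For anti-miR-140 minus anti-miR-449, limma called 0 of 13 member probe sets, where 0% of all were called. At an unadjusted p under 0.05, 1 of 13 passed, Msx2 at 1449559_at, against 2.27% of all probe sets, or 0.935% in its direction. Groups did not overlap in 2 of 13, against 8.4% of all probe sets: Msx2 at that probe set, where every anti-miR-140 array was higher (4.06% of all probe sets), and Msx1 at 1417127_at, where every one was lower (4.34%). In both genes the remaining probe set overlapped. The 13 intervals lay within -0.53 to 0.41, or 0.692-fold to 1.33-fold. Fitted on the 6 anti-miR arrays alone, these 2 probe sets had unadjusted limma p-values of 0.0152 (Msx2) and 0.0295 (Msx1), both 0.974 after adjustment.

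The difference between the 2 responses was tested as an interaction in the same fit. limma called 0 of 13 members, with 0% of all probe sets called. Msx2 at 1449559_at was the 1 member with an unadjusted p under 0.05, against 2.94% of all probe sets, or 1.07% in its direction. Its value was -0.31 ± 0.13, with an unadjusted limma p of 0.0333 and an adjusted p of 0.997. Without the displaced arrays the lowest was Msx1 at 1417127_at, with 0.49 ± 0.19 and a limma adjusted p of 0.209.

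**Figure D2:**
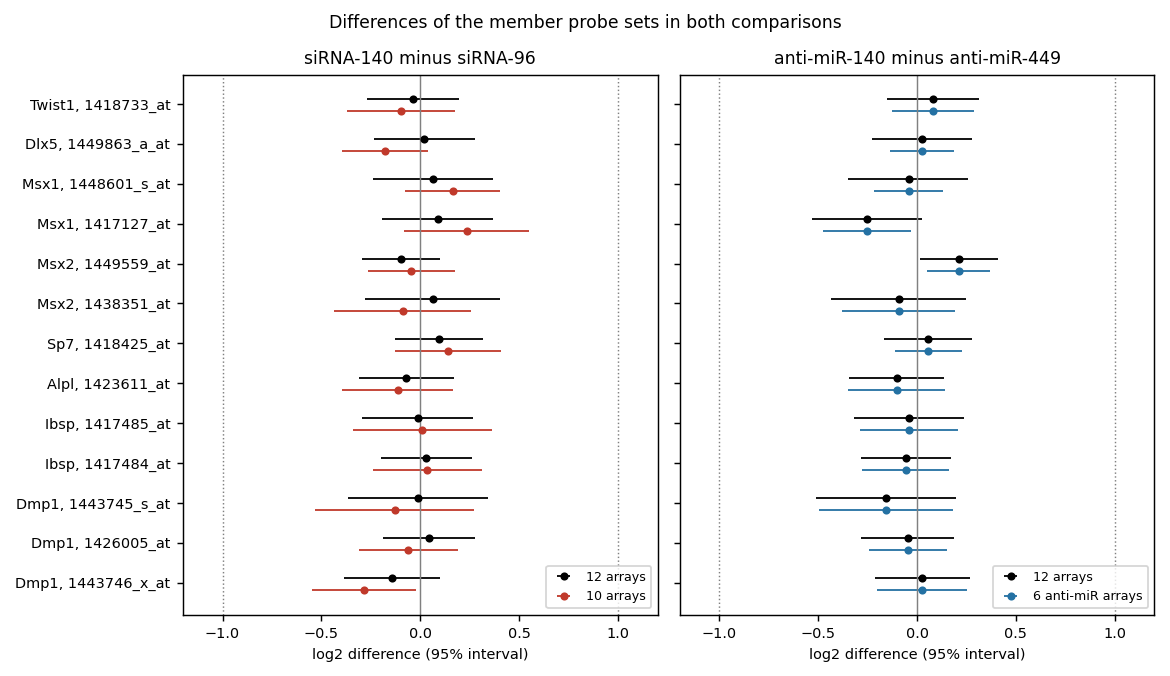
Log2 differences (points) with 95% intervals (bars) of the 13 member probe sets, for siRNA-140 minus siRNA-96 with 12 arrays (black) and 10 arrays (red), and for anti-miR-140 minus anti-miR-449 with 12 arrays (black) and the 6 anti-miR arrays (blue). Dotted lines mark a 2-fold difference, which lies outside every interval drawn.

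Side by side, most member probe sets had both anti-miR group means above both siRNA group means, called the common order here. The order of the groups within an experiment varied between them. The share of all probe sets with the common order was not counted. Among the bright member probe sets, those of Twist1 and Dlx5 and 1 of Msx1 had it. Twist1 averaged 7.34 ± 0.12 (SD, n = 3) with anti-miR-140 and 7.26 ± 0.10 with anti-miR-449, and 6.96 ± 0.07 with siRNA-140 and 6.997 ± 0.175 with siRNA-96. Dlx5 averaged 7.28 ± 0.07 with anti-miR-140 and 7.26 ± 0.03 with anti-miR-449, and 7.01 ± 0.09 with siRNA-140 and 6.99 ± 0.26 with siRNA-96. Msx1 at 1448601_s_at averaged 6.27 ± 0.10 with anti-miR-140 and 6.313 ± 0.006 with anti-miR-449, and 5.66 ± 0.33 with siRNA-140 and 5.59 ± 0.16 with siRNA-96. Within each experiment the compared groups of these probe sets overlapped. The order follows that of the array medians, and the sources used here do not say whether the experiments were normalized together, so the experiments and their normalization cannot be told apart. Msx1 at 1417127_at did not follow it, with 5.84 ± 0.07 for anti-miR-140 and 6.09 ± 0.17 for anti-miR-449, and 5.98 ± 0.23 for siRNA-140 and 5.89 ± 0.16 for siRNA-96. Of the dimmer probe sets, those of Sp7, Alpl and Ibsp had the common order. So had Msx2 at 1438351_at and Dmp1 at 1426005_at and 1443745_s_at, while Msx2 at 1449559_at and Dmp1 at 1443746_x_at had not.

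The wider bone programme was followed through 3 lists written from general knowledge, with 1 probe set for each gene. With all 12 arrays and siRNA-140 minus siRNA-96, limma called 0 of 24 bone matrix and mineral genes, 0 of 35 osteogenic transcription factors and cofactors and 0 of 30 BMP signalling genes, where 0% of all genes were called. The median differences were -0.01, 0.00 and -0.02, beside -0.01 for the 8 member genes and 0.03 for all 18193 genes. The genes named from each list are those with the most positive and most negative differences. Phex, an endopeptidase gene of bone mineral control, stood at 0.72 ± 0.24 (unadjusted p = 0.00982, limma adjusted p = 0.88), and Dcn, which encodes the proteoglycan decorin, at 0.21 ± 0.10. The small proteoglycan genes Ogn and Omd stood at -0.43 ± 0.34 and -0.41 ± 0.27. Among factors, Yap1 stood at -0.22 ± 0.15, Hand2 at -0.20 ± 0.19, Twist2 at 0.21 ± 0.13 and Pparg at 0.18 ± 0.155. Among BMP genes, the inhibitory Smad6 and Bambi stood at -0.43 ± 0.34 and -0.39 ± 0.26, and Bmper and the receptor gene Acvr2a at 0.50 ± 0.29 and 0.21 ± 0.12.

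For anti-miR-140 minus anti-miR-449, limma also called 0 of 24, 0 of 35 and 0 of 30 genes of these lists, where 0% of all genes were called. The medians were -0.04, 0.01 and -0.01, beside -0.01 for the members and 0.00 for all genes. Tnfrsf11b, the decoy receptor gene osteoprotegerin that restrains osteoclasts, stood at 0.31 ± 0.24, and Phex at 0.10 ± 0.24. Dcn stood at -0.24 ± 0.10 and the matrix phosphoglycoprotein gene Mepe at -0.23 ± 0.09. Bmpr1b and Acvr2b, which encode BMP and activin receptors, stood at -0.36 ± 0.14 and -0.30 ± 0.12, and Bmp6 and Smad9 at 0.13 ± 0.11 and 0.13 ± 0.12. Hivep3 stood at -0.16 ± 0.16, Nfatc1 at -0.08 ± 0.115, Gli2 at 0.19 ± 0.275 and Dlx3 at 0.16 ± 0.11. These SEs come from the fit of all arrays, so the spread of the siRNA arrays enters them. Gli2 had SDs of 0.025 with anti-miR-140 and 0.110 with anti-miR-449, against 0.462 with siRNA-140 and 0.694 with its siRNA control. Acvr2b went the other way, with 0.245 and 0.106 against 0.049 and 0.087. Of the genes named in this paragraph, Gli2, Dcn and Mepe had anti-miR groups that did not overlap. Over all probe sets this held for 8.4%, and it was not counted for the lists. No fit of the anti-miR arrays alone is given for these genes.

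Without the displaced arrays, genes of these lists passed the test. On 10 arrays limma called 5 of 24 matrix and mineral genes lower and 1 higher, 11 of 35 factors lower and 1 higher, and 6 of 30 BMP genes lower and 2 higher, where 4.85% of all 18193 genes were called lower and 6.27% higher. Of the 8 member genes, 0 were called, a count near those shares for so few genes, and members and lists were not tested against each other. The members' median was -0.07, beside -0.035, -0.005 and -0.105 for the lists and 0.035 for all genes. Ogn differed by -1.24 ± 0.16, Omd by -1.055 ± 0.11, the osteoblast cadherin gene Cdh11 by -0.895 ± 0.11, Fmod by -0.75 ± 0.11 and Tnfrsf11b by -0.675 ± 0.13, and Phex by 1.19 ± 0.19. Among factors, the Hedgehog effector gene Gli2 differed by -0.78 ± 0.12 and Snai2 by -0.685 ± 0.10, and the remaining called ones by -0.60 to -0.415 (Hey1, Zfp521, Yap1, Gli3, Snai1, Tcf12, Id2, Hoxa2 and Dlx1) or, for Twist2, by 0.465 ± 0.10. Among BMP genes, Smad6 differed by -1.27 ± 0.145, Bambi by -1.01 ± 0.11, the receptor gene Bmpr2 by -0.76 ± 0.11, the signal transducer gene Smad5 by -0.73 ± 0.115, Twsg1 by -0.545 ± 0.10 and the ligand gene Bmp4 by -0.535 ± 0.14, and Acvr2a by 0.40 ± 0.11 and Bmper by 1.15 ± 0.19. On the 4 siRNA arrays alone, 5 lower and 1 higher, 3 lower and 0 higher, and 4 lower and 1 higher genes of these lists were called, where 2.39% of all genes were called lower and 2.45% higher. Genes of the interferon response and cell type marker lists also passed in the same 10-array fit. All 8 interferon response genes were called lower. So were 4 of 10 mesenchymal markers (Col3a1 by -1.12 ± 0.10, Pdgfra by -0.45 ± 0.11, Fn1 by -0.445 ± 0.11 and Cdh11), with Twist2 called higher. Cdh11 and Twist2 also belong to the bone lists and are already counted there. The cartilage collagen gene Col9a1 differed by -1.15 ± 0.125 (1 of 10 chondrocyte markers), the muscle actin gene Acta1 by -0.92 ± 0.14 (1 of 8 muscle markers) and Lpl by 0.695 ± 0.17 (1 of 7 adipocyte markers). Of 8 leukocyte and osteoclast markers, Csf1r differed by -0.515 ± 0.14 and Itgam by 0.465 ± 0.13, and of 7 endothelial markers Tek by 0.60 ± 0.13, while 0 of 10 epithelial markers were called. The part of these markers in the list differences was not tested. The displaced arrays were chosen on expression, so these p-values carry no independent weight for miR-140.

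**Figure D3:**
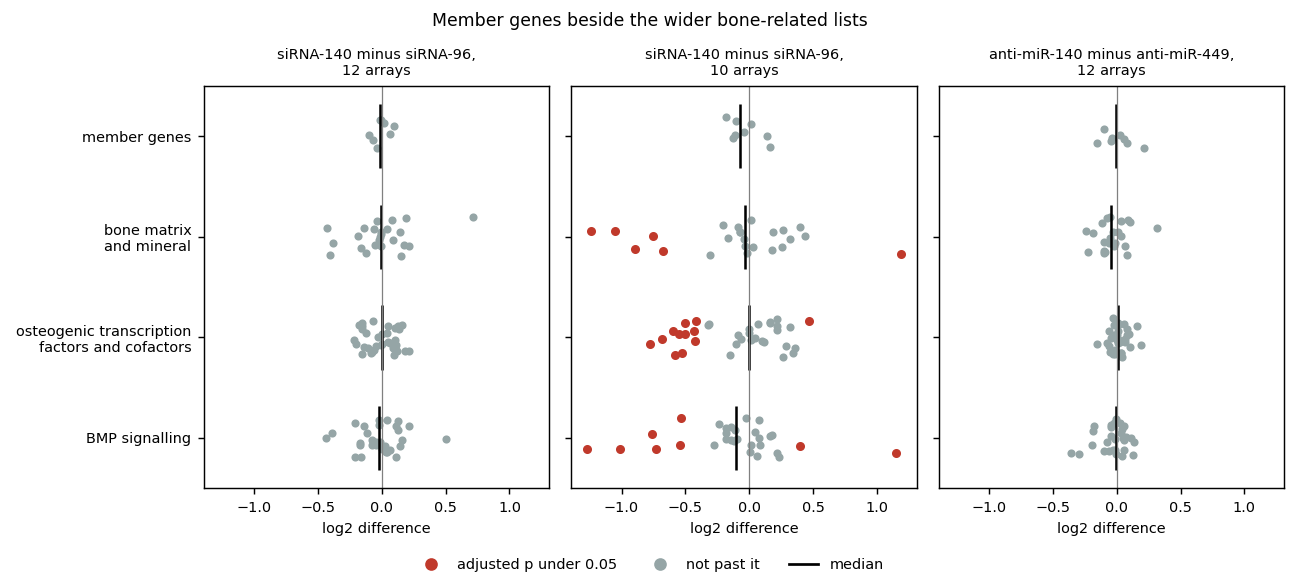
Log2 differences of the 8 member genes and of the genes of the 3 bone-related lists (1 point a gene, black line the median), for siRNA-140 minus siRNA-96 with 12 and with 10 arrays and for anti-miR-140 minus anti-miR-449 with 12 arrays. Red points, which passed an adjusted p under 0.05, appear in the 10-array panel and in the 3 lists, with none among the members.

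Array by array, Ogn, Smad6, Bmpr2 and Phex, shown as examples chosen after their values were seen, sorted with the interferon level rather than with the labels. Ogn read 9.56, 9.71 and 10.65 over siRNA-140 replicates 1 to 3, against 9.45, 10.88 and 10.87 over siRNA-96 replicates 1 to 3. Smad6 read 7.52, 8.01 and 8.99 with siRNA-140, against 7.75, 9.02 and 9.05 with siRNA-96, and Bmpr2 read 7.67, 7.73 and 8.53, against 7.35, 8.53 and 8.39. In each of these genes siRNA-140 replicate 3 was the high array of its group and siRNA-96 replicate 1 the low one. Phex ran the other way, with 5.18, 5.41 and 4.65 with siRNA-140, against 4.88, 4.39 and 3.82 with siRNA-96. The summed level of the 8 measured interferon genes was 33.2 to 51.8 with siRNA-140 and 35.5 to 66.0 with siRNA-96, against 28.8 to 33.1 with anti-miR-140 and 28.5 to 30.1 with anti-miR-449. Of the 8, Ifit3 was above the sensory receptor level in all 12 arrays and Mx1 in none, and the part of this response in the list differences was not tested. No member probe set spanned more than 0.7 log2 units over the 6 siRNA arrays or more than 0.59 over the 6 anti-miR arrays. Some list genes also spanned little, such as Junb, which read 8.29 to 8.42 over the 6 siRNA arrays. The share of all probe sets with such spans was not counted.

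**Figure D4:**
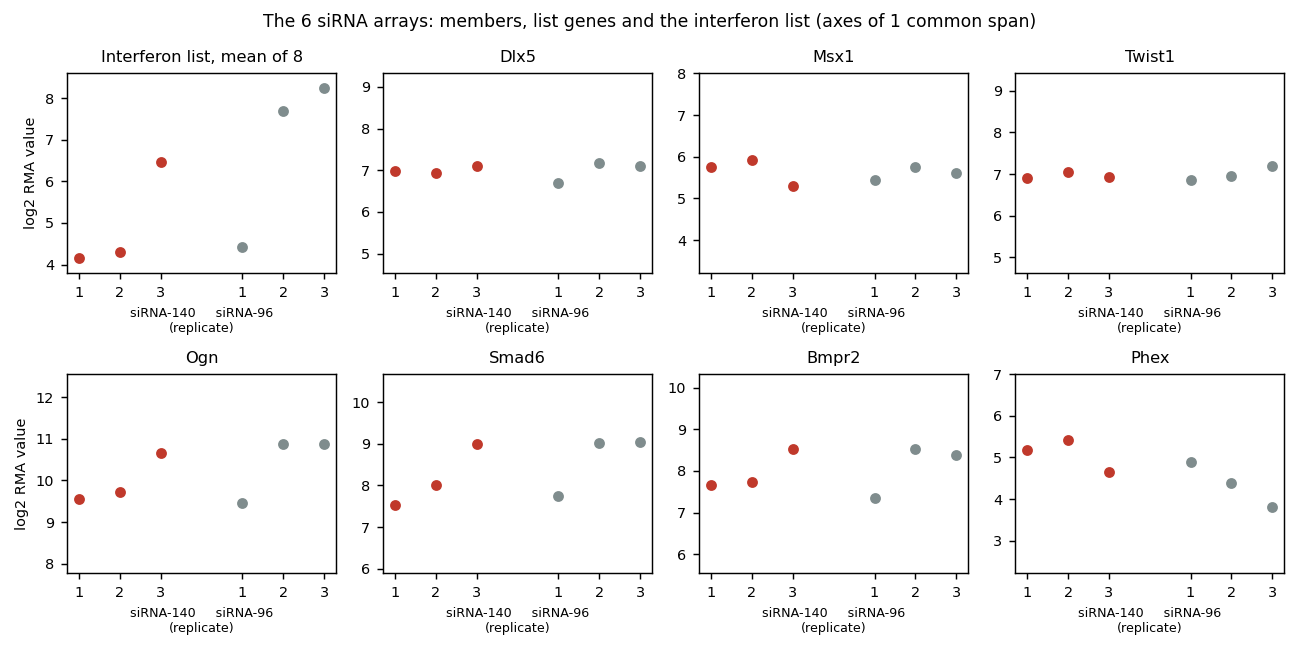
Log2 RMA values in siRNA-140 replicates 1 to 3 (red) and siRNA-96 replicates 1 to 3 (grey) for the mean of the 8 interferon genes, for the members Dlx5, Msx1 and Twist1, and for Ogn, Smad6, Bmpr2 and Phex, all panels with an axis of the same length. The interferon mean, Ogn, Smad6 and Bmpr2 are high in siRNA-140 replicate 3 and siRNA-96 replicates 2 and 3, and the members stay within 0.7 log2 units. Ogn, Smad6, Bmpr2 and Phex were chosen after their values were seen.

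The promoters were read for what the bright and the dim members have in common. RefSeq promoters (GRCm38.p6, 250 bases before to 50 after the gene start, the most upstream start of each gene) were found for 8 of the 10 members, and Sp7 and Dlx5 are not among them. Promoters of Twist1 and Msx1, which were above the sensory receptor level in all arrays, and of Ibsp and Dmp1, which were above it in none, are shown with each CpG dinucleotide in capitals because among members with a probe set they hold the most and the fewest CpGs.
Twist1, GRCm38.p6 chr12:33957421-33957720, plus strand: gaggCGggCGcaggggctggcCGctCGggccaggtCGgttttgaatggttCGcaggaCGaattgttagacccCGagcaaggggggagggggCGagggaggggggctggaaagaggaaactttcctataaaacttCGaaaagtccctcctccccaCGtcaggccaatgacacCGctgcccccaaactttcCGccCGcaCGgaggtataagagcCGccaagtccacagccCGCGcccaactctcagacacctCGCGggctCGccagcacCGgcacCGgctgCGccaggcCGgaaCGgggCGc
Msx1, GRCm38.p6 chr5:37824536-37824835, minus strand: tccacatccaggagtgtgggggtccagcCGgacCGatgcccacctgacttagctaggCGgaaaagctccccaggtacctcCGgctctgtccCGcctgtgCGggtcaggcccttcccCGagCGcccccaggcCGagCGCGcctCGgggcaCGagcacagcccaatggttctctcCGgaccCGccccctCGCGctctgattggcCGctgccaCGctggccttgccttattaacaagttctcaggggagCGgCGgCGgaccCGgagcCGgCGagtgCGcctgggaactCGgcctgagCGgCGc
Ibsp, GRCm38.p6 chr5:104299037-104299336, plus strand: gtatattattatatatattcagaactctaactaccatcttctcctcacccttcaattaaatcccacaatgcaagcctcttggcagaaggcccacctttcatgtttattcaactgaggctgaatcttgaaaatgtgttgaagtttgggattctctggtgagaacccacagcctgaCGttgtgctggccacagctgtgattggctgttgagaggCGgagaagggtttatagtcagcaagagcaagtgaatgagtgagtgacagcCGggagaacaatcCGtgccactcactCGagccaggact
Dmp1, GRCm38.p6 chr5:104197325-104197624, plus strand: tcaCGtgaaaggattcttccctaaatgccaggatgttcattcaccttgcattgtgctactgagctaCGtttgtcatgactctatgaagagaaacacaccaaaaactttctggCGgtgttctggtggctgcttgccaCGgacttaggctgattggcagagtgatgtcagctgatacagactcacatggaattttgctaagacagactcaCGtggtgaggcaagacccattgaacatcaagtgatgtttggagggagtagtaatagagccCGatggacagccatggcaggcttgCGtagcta
The CpG count was 27 in Twist1 and 29 in Msx1, against 5 in Ibsp and 7 in Dmp1. Over all 27025 genes with a promoter the median was 7, and 44.0% held 10 or more. Genes whose brightest probe set was above the sensory receptor level in all arrays had a median of 22, with 85.9% at 10 or more (8408 genes), and genes above it in no array had 6, with 37.7% at 10 or more (4533 genes). Msx2, with 22, and Alpl, with 26, also held many CpGs although their probe sets were dim, so CpG content did not divide the members by level. Runx2 and Spp1 held 2 and 3. The sequence ACCACA, used here as the Runx motif, was searched on both strands (TGTGGT on the other), and no other form of the motif was searched. It was found in the promoters of Runx2 (3 matches) and Spp1 (1 match) among the 8, and in 16.9% of all promoters.

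**Figure D5:**
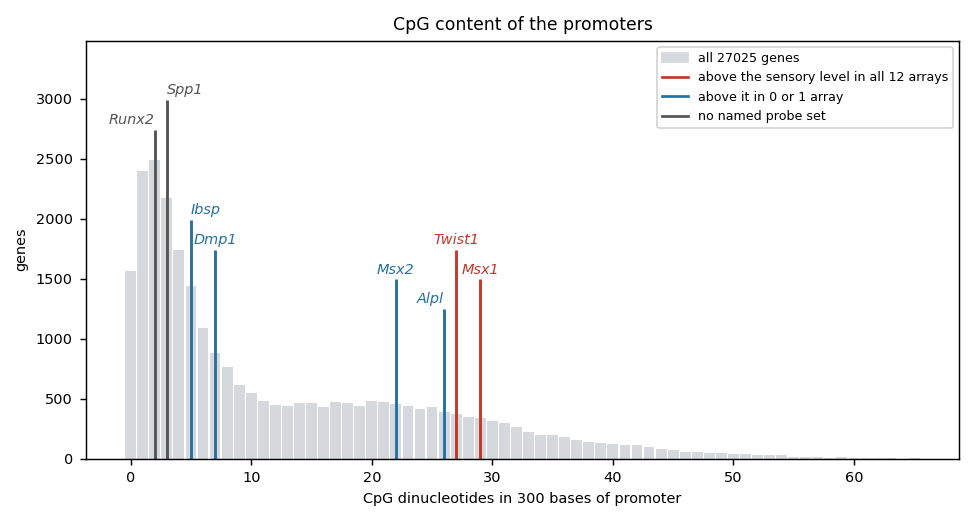
CpG dinucleotides in 300 bases of promoter (horizontal axis) against the number of genes (grey bars, all 27025 genes), with the 8 members as vertical lines whose height has no meaning. Red lines are members above the sensory receptor level in all 12 arrays, blue lines those above it in 0 or 1 array, and dark grey lines those with no named probe set. Twist1 and Msx1 lie at 27 and 29, Alpl and Msx2 at 26 and 22, and Ibsp and Dmp1 at 5 and 7.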

How the data were processed

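RNA of 12 samples was measured on Affymetrix arrays. The authors deposited log2 values, computed with RMA per the submitters' processing notes; the version and whether all arrays were normalized together are not given in the sources used here. RMA shrinks differences of dim probe sets, so those understate change. The table held 45101 probe sets; 64 array controls were left out and 45037 tested, with no filter. Of these, 34945 had 1 symbol, 932 several and 9160 none in the platform annotation.

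Linear models of 4 group means over 12 arrays were fitted in R 4.3.3 (limma 3.58.1, eBayes), and p-values were adjusted by Benjamini-Hochberg over all probe sets. For lists, the probe set with the highest mean stands for a gene, and the 2 most positive and 2 most negative genes of each list and comparison, and any called, are named. A rule naming genes that follow a member spanning over 1 log2 unit found 0 such members. The fit was tested on simulated data. Members and lists were chosen with earlier results of these data known, the omission of 2 siRNA arrays included.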

Additional observations from a re-analysis of the deposited data

How the results depend on the processing

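No member probe set was called under any alternative at an adjusted p under 0.05, and the smallest adjusted p at a gene's brightest probe set was 0.352. The alternatives for a gene's difference gave 318 values, of which 296 kept their sign, and the largest with an opposite sign was 0.18 in size. Many of these values could not differ from the main one. Leaving out an array of the other experiment does not change the compared means, and some genes have only 1 probe set to average. The share that kept its sign therefore overstates how far the signs were tested. For siRNA-140 minus siRNA-96 the sign turned for Dlx5 after a further quantile normalization (-0.037) and on 10 arrays or the 4 siRNA arrays alone (-0.18 in both), and for Ibsp on 10 arrays or those 4 (0.01 in both) and as the mean of its probe sets (0.008). Leaving out 1 array at a time gave -0.122 to 0.088 for Ibsp, -0.13 to 0.11 for Dlx5, -0.068 to 0.247 for Msx1, -0.142 to 0.148 for Dmp1 and -0.11 to 0.06 for Twist1. For anti-miR-140 minus anti-miR-449 it gave -0.14 to 0.035 for Ibsp, -0.007 to 0.058 for Dlx5 and -0.178 to 0.017 for Alpl. The cause was not tested.

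The 0 calls over all probe sets in the siRNA comparison became 4043 on 10 arrays, with 6 matrix, 12 factor and 8 BMP genes, and 1985 for the difference between responses. On the 4 siRNA arrays alone, a fit added after seeing the data, they became 1743, with 6 matrix, 3 factor and 5 BMP genes. Leaving out 1 array gave 0 to 36 in the siRNA comparison (36 without siRNA-96 replicate 1, 25 without siRNA-96 replicate 2) and 0 to 1 for the difference between responses. An unadjusted p under 0.05 was reached by 2292 probe sets in the siRNA comparison, 1022 in the anti-miR comparison and 1322 for the difference between responses, with 1 member in each of the last 2 of these, 2 matrix genes in each comparison and 2 BMP genes in the anti-miR comparison.

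With the replicate number as a block, 0 probe sets were called in each comparison. The deviations of same-numbered arrays correlated at 0.41, -0.241 and 0.439 in the siRNA experiment and at -0.014, 0.103 and -0.032 in the anti-miR experiment. Those of differently numbered siRNA arrays ran between -0.677 and 0.493. With 3 arrays a group and 2 displaced siRNA arrays, this cannot tell whether the numbers pair the arrays. Of the 8 genes, 3 (Twist1, Dlx5 and Msx1) passed the filter on level, so the others have no value there. The number of arrays limits precision, and the low signal of Alpl, Ibsp, Dmp1 and Msx2 limits what their differences can show.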

Other observations

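Markers of other cell types that C3H10T1/2 cells can form, or that a culture could hold, were read by the same rule. Above the sensory receptor level in all 12 arrays were 5 of 10 chondrocyte genes (Sox9, Sox5, Col2a1, Col9a1 and Col11a1), 3 of 7 adipocyte genes (Pparg, Cebpa and Lpl) and 3 of 8 muscle genes (Des, Ckm and Acta1). So were 3 of 10 epithelial genes (Krt8, Epcam and Cldn3), 2 of 8 leukocyte and osteoclast genes (Cd68 and Csf1r) and 0 of 7 endothelial genes. The cartilage matrix genes Acan, Matn1, Hapln1 and Col10a1 were above it in no array. Of the bone lists, 18 of 24 matrix and mineral genes, 30 of 35 factors and 20 of 30 BMP genes were above it in all arrays. Those above it in no array were Mepe, Dspp, Sost and Tnfsf11 of the matrix and mineral list and the factor gene Hand2. The BMP genes above it in no array were Bmp2, Bmp6, Gdf5, Bmpr1b, Smad9, Nog, Chrdl1 and Sostdc1. These counts use the brightest probe set of each gene. The share of all genes above the level in all arrays was not computed, so the counts are not set against it.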
